A study of Mus musculus with 6 samples.

Results

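The mitosis and spindle genes described here are a list of 52 genes whose proteins drive or carry out cell division, from cyclins and mitotic kinases to the spindle, the kinetochore, the condensins and the contractile ring. Each gene was read from the probe set that the array's annotation gives to it alone, and where it had several, from the one with the highest mean over the 6 arrays. By this rule 51 of the 52 were measured, among 19938 genes measured in all, and *Ccnb1*, for cyclin B1, had no probe set of its own. The samples were villi taken from the intestines of littermates at 5 days of age, as 3 mutant and 3 control replicates with 1 Affymetrix whole-transcript array each. Mutant pups were *Trpm7* fl/fl;*Villin1*-Cre and control pups *Trpm7* fl/fl, so both genotypes carry the floxed alleles of *Trpm7*, a channel for divalent cations fused to a kinase. The *Villin1* promoter drives Cre in the intestinal epithelium, and blood, connective tissue and vessel cells in the preparation keep the gene. The labels give the background as C57BL/6 and the sex as unknown, and by the methods the floxed line and the Cre line differ in background. The design counts 3 littermates of each genotype, without tying an array to 1 pup, and the p-values measure the spread between these arrays.

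Genes of mitosis are switched on together late in the cell cycle and are nearly silent in cells that have left it. In the intestine, dividing cells sit in the crypts and in the pockets between villi of the newborn, and the enterocytes that cover the villi no longer divide. Many of these genes carry a cell cycle genes homology region close to the start of transcription, where the MuvB complex sits, as part of the repressive DREAM complex in resting cells and with B-MYB and FOXM1 in dividing cells. Further upstream lie CCAAT boxes, which nuclear factor Y binds.

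Of the 51 genes, 41 had a higher signal in mutant than in control villi at an adjusted p of 0.05 or less (limma, adjusted over all probe sets), and none was lower, at an unadjusted p of 0.05 or less either. Among all 30177 probe sets, 8.04% were higher and 8.82% lower by the same test. The change was positive in 49 of the 51 genes, and in the same 49 genes all 3 mutant values lay above all 3 control values, which held for 16.9% of all probe sets. The median change of the 51 was 0.71 on the log2 scale, beside 0.00 over all probe sets. A rise of at least 2-fold was measured in 8 genes, against 1.35% of all probe sets. The genes with a 2-fold rise were *Ect2*, *Kif4*, *Hmmr*, *Kif23*, *Kif2c*, *Ccna2*, *Nek2* and *Anln*. In 8 genes, *Kif4* and *Hmmr* again among them, the lower group mean lay under the arrays' median of 6.27, and whether such signals are above background was not tested. The others were *Cdc25c*, *Bub1*, *Ttk*, *Cenpf*, *Nusap1* and *Foxm1*. Because the samples are bulk tissue, more dividing cells and more of these RNAs per cell cannot be told apart.

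**Figure D1:**
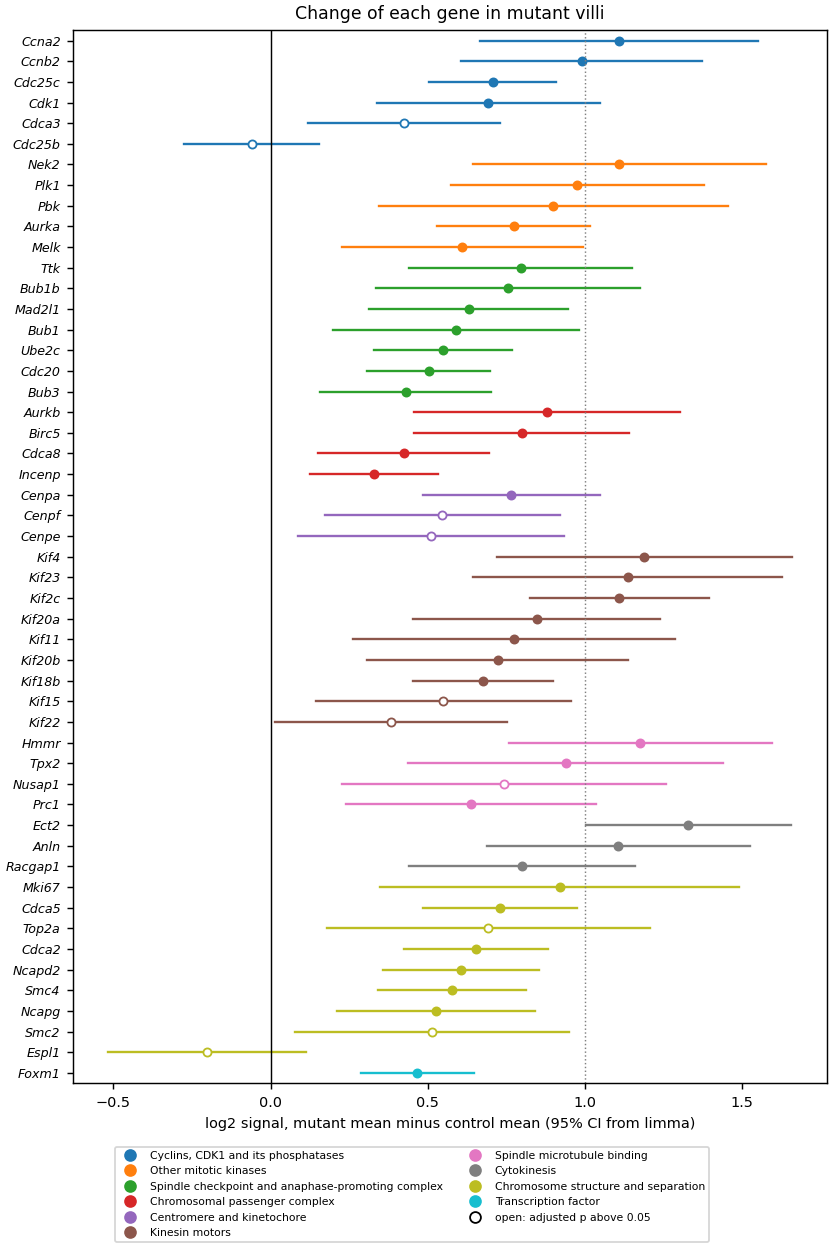
Change of each of the 51 genes, as the mutant mean minus the control mean of the log2 signal (horizontal axis) with the 95% confidence interval from limma, coloured by role. Filled points passed the test, open points did not, and the dotted line marks a 2-fold rise. All points except *Espl1* and *Cdc25b* lie right of 0.

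The promoters of these genes share letters that the list was not chosen by, and 12 of them are printed here to show where these letters do and do not lie. RefSeq start sites (build GRCm38.p6) gave a window from 250 bases before to 50 bases after the start for 42 of the 52 genes. The letters TTTGAA or TTCGAA, the core of the homology region, were searched on both strands, as was CCAAT, with overlapping matches counted. The hexamer lay in the window of 35 of the 42 genes (83.3%) and of 5854 of 27025 genes in the whole table (21.7%). CCAAT lay in 33 of the 42 (78.6%), against 41.1% of all genes, and both together in 30 (71.4%), against 8.61%. Printed below are the 100 bases before to 30 bases after the start, on the strand of the gene, with the hexamer and the CCAAT box, in either orientation, in capitals. They are the leaders of their roles by change among genes with a window, for *Ccnb2* (chr9:70421525-70421654, minus strand), *Nek2* (chr1:191821373-191821502, plus), *Ttk* (chr9:83834589-83834718, plus), *Birc5* (chr11:117849137-117849266, plus), *Cenpa* (chr5:30666786-30666915, plus), *Kif4* (chrX:100625965-100626094, plus), *Hmmr* (chr11:40733408-40733537, minus), *Ect2* (chr3:27153825-27153954, minus, 1 of its 2 windows) and *Mki67* (chr7:135716350-135716479, minus). *Cdk1* (chr10:69352883-69353012, minus) is shown for the kinase itself, and *Cdc25b* (chr2:131186848-131186977, plus) and *Espl1* (chr15:102296193-102296322, plus) as the members whose mean was not above that of control villi.
Ccnb2: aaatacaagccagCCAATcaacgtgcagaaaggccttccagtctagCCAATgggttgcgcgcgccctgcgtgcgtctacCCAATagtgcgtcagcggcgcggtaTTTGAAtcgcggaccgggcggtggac
Cdk1: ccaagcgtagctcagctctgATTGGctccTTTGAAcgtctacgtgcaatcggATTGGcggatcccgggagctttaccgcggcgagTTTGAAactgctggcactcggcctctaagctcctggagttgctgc
Nek2: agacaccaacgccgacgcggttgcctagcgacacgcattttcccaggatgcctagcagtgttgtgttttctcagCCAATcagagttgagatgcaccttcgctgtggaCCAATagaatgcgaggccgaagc
Ttk: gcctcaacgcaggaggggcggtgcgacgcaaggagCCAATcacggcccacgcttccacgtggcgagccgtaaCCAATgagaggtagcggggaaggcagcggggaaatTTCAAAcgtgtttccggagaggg
Birc5: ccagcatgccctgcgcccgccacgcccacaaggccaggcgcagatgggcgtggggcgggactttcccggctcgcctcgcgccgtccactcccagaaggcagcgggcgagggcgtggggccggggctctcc
Cenpa: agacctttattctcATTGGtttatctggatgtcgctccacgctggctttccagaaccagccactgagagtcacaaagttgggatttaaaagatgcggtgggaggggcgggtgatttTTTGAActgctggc
Kif4: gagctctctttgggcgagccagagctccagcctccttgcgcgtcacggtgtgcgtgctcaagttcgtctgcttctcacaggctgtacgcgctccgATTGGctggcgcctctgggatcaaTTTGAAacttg
Hmmr: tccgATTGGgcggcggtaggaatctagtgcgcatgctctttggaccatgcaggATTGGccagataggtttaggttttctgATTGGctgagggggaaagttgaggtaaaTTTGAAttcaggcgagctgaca
Ect2: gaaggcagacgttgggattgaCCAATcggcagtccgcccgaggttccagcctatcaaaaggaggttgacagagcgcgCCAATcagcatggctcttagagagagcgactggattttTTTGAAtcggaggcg
Mki67: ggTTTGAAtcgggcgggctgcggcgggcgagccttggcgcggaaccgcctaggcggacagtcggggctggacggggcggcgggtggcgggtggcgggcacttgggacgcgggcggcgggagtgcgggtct
Cdc25b: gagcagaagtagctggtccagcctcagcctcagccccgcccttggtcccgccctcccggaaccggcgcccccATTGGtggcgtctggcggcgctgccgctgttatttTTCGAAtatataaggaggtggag
Espl1: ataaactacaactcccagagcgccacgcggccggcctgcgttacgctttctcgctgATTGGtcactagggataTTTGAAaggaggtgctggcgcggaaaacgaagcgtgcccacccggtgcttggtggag

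In these printed windows, with the start base as position 0, the hexamer nearest to it began between positions 4 (*Ccnb2*) and 19 (*Kif4*) in *Ccnb2*, *Ttk*, *Cenpa*, *Kif4*, *Hmmr*, *Ect2* and *Cdc25b*. It began at −15 in *Cdk1*, at −27 in *Espl1* and at −98 in *Mki67*, and the windows of *Nek2* and *Birc5* held none. Between 50 bases before and 50 bases after the start, 32 of the 42 genes (76.2%) held the hexamer, against 6.12% of all genes. In the 25 bases from the start on, 15 of 45 windows of these genes held it (33.3%), against 1.43% of 32851 windows in the table. CCAAT was most frequent 75 to 50 bases before the start, in 16 of the 45 windows (35.6%), against 6.99% of all windows. Counted by gene, the hexamer lay in 27 of 31 genes that rose (87.1%) and in 8 of 10 measured genes that did not pass the test, *Cdc25b* and *Espl1* included.

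**Figure D2:**
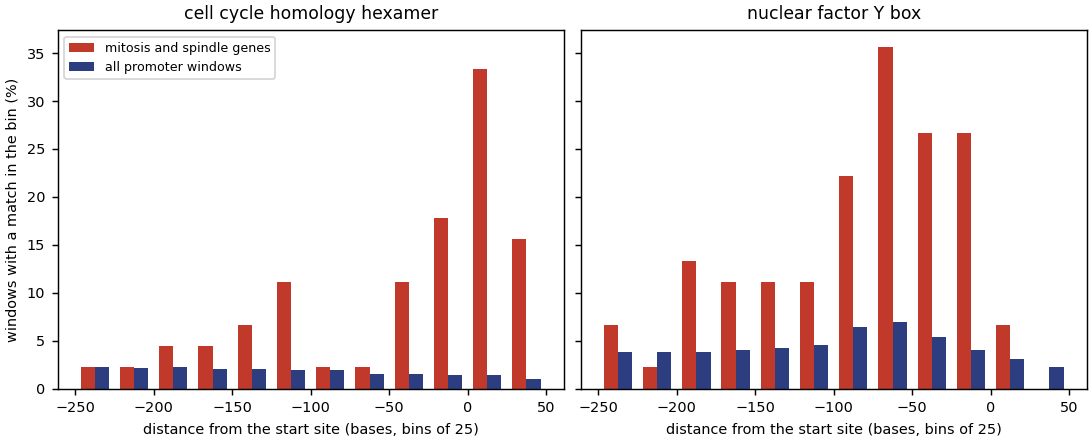
Share of promoter windows with a match (vertical axis, %) in bins of 25 bases along the distance from the start site (horizontal axis, bases), for the hexamer of the cell cycle homology region and for the box bound by nuclear factor Y. Red bars are the 45 windows of the mitosis and spindle genes and blue bars all 32851 windows, and the hexamer reaches 33.3% against 1.43% in the bin after the start.

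The 3 control arrays were not alike in these genes. Control replicate 1 had the lowest value of its group in 48 of 51 genes (94.1%), against 36.6% of all probe sets, and its median deviation from the group mean was −0.37. Its median signal over the 51 genes was 6.39, against 6.79 and 6.94 in control replicates 2 and 3, and the mutant replicates had 7.50, 7.41 and 7.46. The median SD over the genes was 0.11 in mutant and 0.32 in control villi, beside 0.10 in both groups over all probe sets. Without control replicate 1, 41 genes were again higher, 38 of them shared with the 41 of the full comparison, while the median change was 0.53 and 2-fold rises were left in 2 genes, *Ect2* (1.29) and *Hmmr* (1.02). Without mutant replicate 1, 2 or 3 in turn, 27 genes were higher, and without control replicate 2 there were 32. *Ect2*, *Kif2c*, *Cdc25c*, *Aurka*, *Cdca2* and *Foxm1* were among 26 genes called with every 1 of the 6 arrays left out in turn. The arrays also differed in sex-linked transcripts, where control replicates 2 and 3 held both *Xist* (9.82 and 9.66) and Y-linked *Eif2s3y* (7.71 and 7.84). Mutant replicates 2 and 3 held *Eif2s3y* (8.38 and 8.50) with little *Xist* (4.76 and 5.26), and replicate 1 of each genotype held *Xist* (10.18 in the mutant, 10.48 in the control) with little *Eif2s3y* (3.56 in the mutant, 3.63 in the control). With control replicates 2 and 3 averaged and counted as 1 sample, 37 genes were higher, with a median change of 0.78. The labels do not say whether control replicates 2 and 3, with both kinds of transcript, each hold RNA of 1 pup or of several. The replicates may therefore not be like units. The part of sex-linked differences in the results was not tested. *Trpm7* itself had signals of 8.03, 7.79 and 7.88 in mutant villi, against 9.11, 8.96 and 9.03 in control villi, and fell by 1.13 (adjusted p = 1.9e-04 from limma). By qPCR, the paper found hardly any wild-type *Trpm7* transcript in villi of mutants of this age. The deleted allele carries a frameshift, and whether the probe set also reads transcripts of that allele was not tested.

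**Figure D3:**
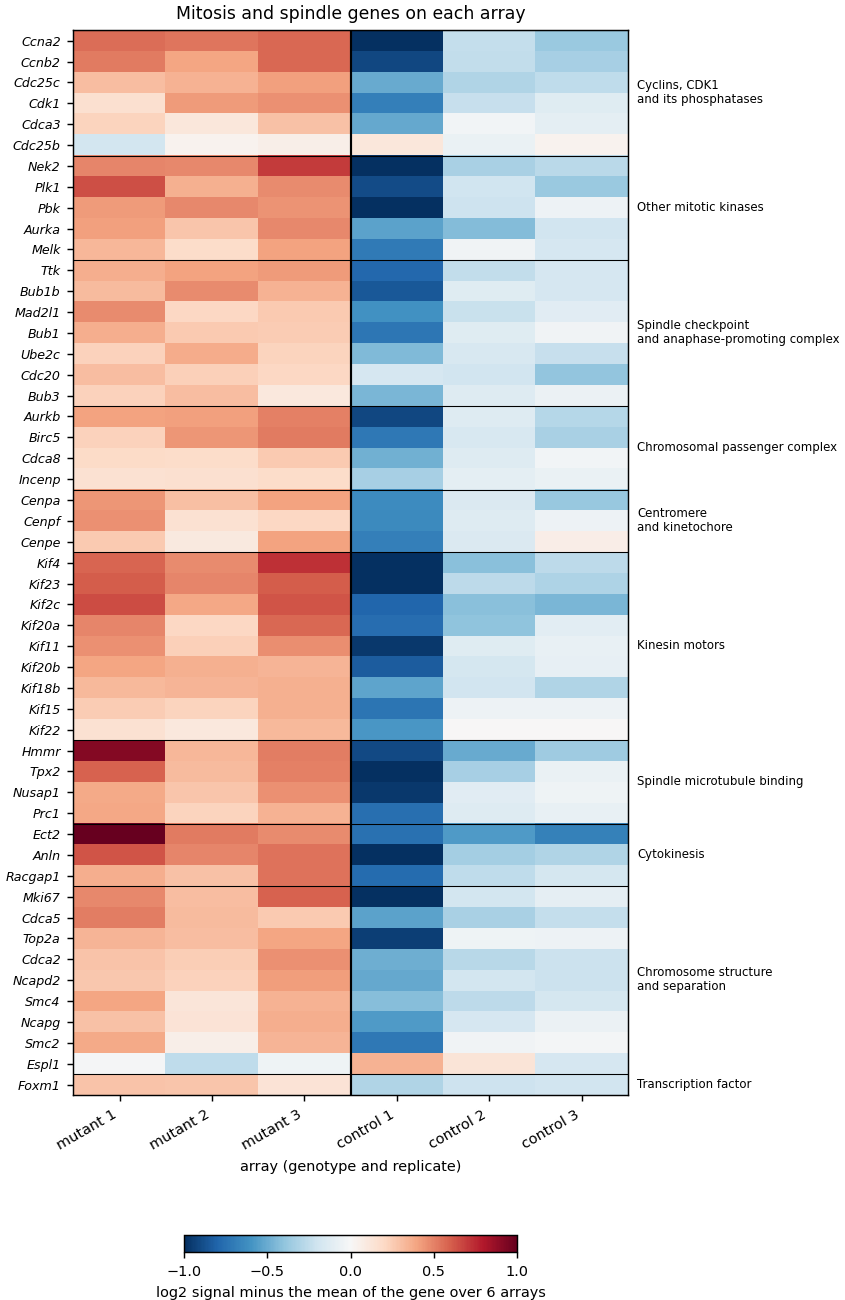
Log2 signal of each gene (rows, grouped by role and ordered by change) on each array (columns, mutant replicates left of control replicates), as the difference from the mean of the gene over 6 arrays, with the colour scale ending at 1 and −1. Blue is deepest in control replicate 1, the lowest control array in 48 of 51 genes.

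Cyclin A2 and the B cyclins bind CDK1, the kinase that starts mitosis, and CDC25 phosphatases remove the phosphates that hold CDK1 inactive. Of the 6 measured genes of this role 4 rose, with a median change of 0.70. *Ccna2* had log2 signals of 8.93, 8.91 and 8.95 in mutant villi, against 7.32, 8.14 and 8.0 in control villi, a rise of 1.11 ± 0.19 (SE; adjusted p = 0.00656 from limma). *Ccnb2* had 9.06, 8.93 and 9.11 in mutant villi, against 7.63, 8.29 and 8.21 in control villi, and rose by 0.99 ± 0.17 (adjusted p = 0.00576 from limma). In these cyclins the groups lay 0.77 and 0.64 apart at their nearest values, and control replicate 1 was the low outlying point. *Cdc25c*, a phosphatase of mitotic entry, had 5.56, 5.60 and 5.66 in mutant villi, against 4.75, 4.95 and 5.00 in control villi, a rise of 0.71 ± 0.09 (adjusted p = 0.00148 from limma). *Cdk1* rose by 0.69 ± 0.15 (adjusted p = 0.0189 from limma), a call that did not hold when mutant replicate 2 or 3 was left out (adjusted p from 0.0585 to 0.0724).

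The other phosphatase, *Cdc25b*, had 6.30, 6.52 and 6.54 in mutant villi, against 6.60, 6.42 and 6.52 in control villi. Its groups overlapped, and the difference was −0.06 with a 95% interval from −0.27 to 0.15 (adjusted p = 0.723 from limma). *Cdca3*, a trigger of mitotic entry, had 7.75, 7.64 and 7.82 in mutant villi, against 7.01, 7.50 and 7.43 in control villi. These groups did not overlap, and the difference of 0.42 ± 0.13 (SE) missed the threshold (adjusted p = 0.0667 from limma).

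Kinases beside CDK1 build the spindle poles and time mitosis, and all 5 measured here rose, with a median change of 0.90. *Nek2*, which splits the centrosomes, had 7.70, 7.69 and 7.91 in mutant villi, against 6.14, 6.89 and 6.94 in control villi, a rise of 1.11 ± 0.20 (SE; adjusted p = 0.00819 from limma). *Plk1*, polo-like kinase 1, which acts at centrosomes, kinetochores and the midzone, had 8.81, 8.52 and 8.64 in mutant villi, against 7.27, 7.97 and 7.80 in control villi, and rose by 0.98 ± 0.17 (adjusted p = 0.00751 from limma). *Pbk*, a mitotic kinase of the MAPKK family, had 7.36, 7.41 and 7.38 in mutant villi, against 5.84, 6.73 and 6.88 in control villi, and rose by 0.90 ± 0.24 (adjusted p = 0.0381 from limma). No mutant value fell inside the control range in any of these kinases. *Aurka*, the Aurora kinase of the spindle poles, rose by 0.77 ± 0.11 (adjusted p = 0.00232 from limma) and *Melk*, a kinase of dividing progenitors, by 0.61 ± 0.17 (adjusted p = 0.0415 from limma). *Pbk* was not called without control replicate 2 or any 1 mutant replicate (adjusted p from 0.0545 to 0.112), nor *Melk* without control replicate 3 or any 1 mutant replicate (0.0692 to 0.111).

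The spindle checkpoint holds back the anaphase-promoting complex until each chromosome is attached, and CDC20 and UBE2C then let that complex tag securin and the B cyclins for destruction. All 7 of these genes rose, by a median of 0.59. *Ttk*, the kinase MPS1 at the head of the checkpoint, had 6.65, 6.69 and 6.71 in mutant villi, against 5.50, 6.04 and 6.12 in control villi, a rise of 0.80 ± 0.15 (SE; adjusted p = 0.0105 from limma). *Bub1b*, for the checkpoint protein BUBR1, had 7.09, 7.25 and 7.12 in mutant villi, against 5.93, 6.65 and 6.61 in control villi, and rose by 0.76 ± 0.18 (adjusted p = 0.0257 from limma). *Mad2l1*, for MAD2, had 8.27, 8.0 and 8.06 in mutant villi, against 7.19, 7.57 and 7.68 in control villi, and rose by 0.63 ± 0.14 (adjusted p = 0.0174 from limma). The groups were apart in each, by 0.32 to 0.53 at the nearest values. The rise was 0.50 ± 0.08 in *Cdc20* (adjusted p = 0.0059 from limma) and 0.55 ± 0.10 in *Ube2c* (adjusted p = 0.00657 from limma). *Bub1* rose by 0.59 ± 0.17 (adjusted p = 0.0496 from limma) and *Bub3*, its partner at kinetochores, by 0.43 ± 0.12 (adjusted p = 0.0421 from limma). *Bub1* was not called without control replicate 2 or any 1 mutant replicate (adjusted p from 0.0675 to 0.131), *Bub3* with any 1 array left out except control replicate 3 (0.053 to 0.139), *Bub1b* without any 1 mutant replicate (0.0599 to 0.0921) and *Mad2l1* without mutant replicate 1 (0.0589).

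The chromosomal passenger complex corrects wrong attachments and then directs cytokinesis, and all 4 of its subunits rose. *Aurkb*, its Aurora kinase, had 8.23, 8.24 and 8.33 in mutant villi, against 6.92, 7.70 and 7.54 in control villi, a rise of 0.88 ± 0.18 (SE; adjusted p = 0.0144 from limma). *Birc5*, for survivin, had 7.11, 7.32 and 7.40 in mutant villi, against 6.16, 6.72 and 6.55 in control villi, and rose by 0.80 ± 0.15 (adjusted p = 0.00888 from limma). *Cdca8*, for borealin, had 7.08, 7.07 and 7.15 in mutant villi, against 6.41, 6.76 and 6.86 in control villi, and rose by 0.42 ± 0.12 (adjusted p = 0.0452 from limma). In the kinase and survivin the nearest values of the groups were 0.53 and 0.39 apart, and in borealin 0.21. *Incenp*, the scaffold of the complex, rose by 0.33 ± 0.09 (adjusted p = 0.0379 from limma), a call that was lost with any 1 array left out (adjusted p from 0.052 to 0.102). That of *Cdca8* was lost with any 1 left out except control replicate 3 (0.0567 to 0.114).

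Among 3 genes of the centromere and kinetochore, 1 rose. *Cenpa*, the histone H3 variant that marks centromeres, had 7.83, 7.69 and 7.79 in mutant villi, against 6.76, 7.24 and 7.01 in control villi, a rise of 0.77 ± 0.12 (SE; adjusted p = 0.00456 from limma). *Cenpf*, a large protein of the outer kinetochore, had 6.89, 6.58 and 6.64 in mutant villi, against 5.79, 6.30 and 6.38 in control villi, a difference of 0.55 ± 0.16 (adjusted p = 0.0551 from limma). *Cenpe*, the kinesin that carries chromosomes to the equator, had 7.17, 7.0 and 7.31 in mutant villi, against 6.22, 6.76 and 6.97 in control villi, a difference of 0.51 ± 0.18 (adjusted p = 0.104 from limma). The values of *Cenpf* and *Cenpe* did not overlap between groups, and in *Cenpe* the nearest were 0.03 apart.

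Kinesins walk along or take apart microtubules, and 7 of the 9 measured rose, by a median of 0.77 over the 9. *Kif4*, which binds chromosomes and shortens the midzone, had 6.82, 6.71 and 6.97 in mutant villi, against 5.13, 5.82 and 5.98 in control villi, a rise of 1.19 ± 0.20 (SE; adjusted p = 0.00631 from limma). *Kif23*, the motor of the centralspindlin complex, had 7.89, 7.77 and 7.89 in mutant villi, against 6.15, 7.02 and 6.97 in control villi, and rose by 1.14 ± 0.21 (adjusted p = 0.00933 from limma). *Kif2c*, which depolymerises microtubules at centromeres, had 7.81, 7.54 and 7.78 in mutant villi, against 6.36, 6.74 and 6.70 in control villi, and rose by 1.11 ± 0.12 (adjusted p = 9.11e-04 from limma). In these 3 the groups stood 0.73 to 0.80 apart at their nearest values. *Kif20a*, which brings the passenger complex to the midzone, rose by 0.85 ± 0.17 (adjusted p = 0.0125 from limma), and *Kif18b*, which trims astral microtubules, by 0.68 ± 0.10 (adjusted p = 0.00282 from limma). *Kif11*, the motor that pushes the poles apart, rose by 0.77 ± 0.22 (adjusted p = 0.0498 from limma) and *Kif20b*, a kinesin of late cytokinesis, by 0.72 ± 0.18 (adjusted p = 0.0293 from limma). *Kif11* was not called without control replicate 2 or any 1 mutant replicate (adjusted p from 0.0577 to 0.128), nor *Kif20b* without any 1 mutant replicate (0.0687 to 0.0866).

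*Kif15*, which backs up KIF11 at the spindle, had 6.86, 6.83 and 6.96 in mutant villi, against 5.88, 6.56 and 6.56 in control villi, a difference of 0.55 ± 0.18 (SE; adjusted p = 0.0725 from limma). *Kif22*, a motor on chromosome arms, had 6.74, 6.69 and 6.91 in mutant villi, against 6.01, 6.59 and 6.59 in control villi, a difference of 0.38 ± 0.16 (adjusted p = 0.155 from limma). In both genes control replicates 2 and 3 were equal and control replicate 1 lay well below them. Without control replicate 1, *Kif15* was called at a smaller difference of 0.32 (adjusted p = 0.0411 from limma).

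Of the 4 genes whose products bind spindle microtubules, 3 rose. *Hmmr*, which holds microtubules at the poles, had 7.41, 6.83 and 7.01 in mutant villi, against 5.59, 5.99 and 6.14 in control villi, a rise of 1.18 ± 0.18 (SE; adjusted p = 0.00392 from limma). *Tpx2*, which activates Aurora A on the spindle, had 8.14, 7.87 and 8.05 in mutant villi, against 6.54, 7.22 and 7.48 in control villi, and rose by 0.94 ± 0.22 (adjusted p = 0.0221 from limma). *Nusap1*, which bundles microtubules near chromosomes, had 7.01, 6.91 and 7.09 in mutant villi, against 5.67, 6.52 and 6.59 in control villi, a difference of 0.74 ± 0.22 (adjusted p = 0.0582 from limma). Mutant values were above all control values in each. *Prc1*, which crosslinks the midzone, rose by 0.64 ± 0.17 (adjusted p = 0.0402 from limma). *Nusap1* was called without control replicate 1 or 3 (adjusted p from 0.0183 to 0.0482), whereas *Tpx2* was not called without any 1 mutant replicate (0.0513 to 0.0712), nor *Prc1* without those or without control replicate 2 (0.053 to 0.111).

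Cytokinesis held the gene with the most pronounced rise of the 51, and all 3 of its genes rose, by a median of 1.11. *Ect2*, the exchange factor that switches on RhoA at the cleavage furrow, had 9.50, 9.02 and 8.97 in mutant villi, against 7.75, 7.93 and 7.82 in control villi. Its rise was 1.33 ± 0.14 (SE), or 2.51-fold (adjusted p = 7.49e-04 from limma), and the lowest mutant value was 1.04 above the highest control value. *Ect2* differs from most of the list in that control replicate 1 was close to the other control arrays, and without it the rise was 1.29. *Anln*, for anillin, the scaffold of the contractile ring, had 7.54, 7.40 and 7.45 in mutant villi, against 5.89, 6.57 and 6.61 in control villi, and rose by 1.11 ± 0.18 (adjusted p = 0.00514 from limma). *Racgap1*, the partner of KIF23 that recruits ECT2 to the midzone, had 7.85, 7.78 and 8.03 in mutant villi, against 6.72, 7.23 and 7.31 in control villi, and rose by 0.80 ± 0.16 (adjusted p = 0.011 from limma). The ring's scaffold and the midzone partner had the lowest value in control replicate 1, as had *Kif23*.

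Condensins fold chromosomes, topoisomerase II untangles them and separase cuts the cohesin that joins sister chromatids, and 6 of the 9 genes of this group rose. *Mki67*, for Ki67, a coat of mitotic chromosomes used to mark dividing cells, had 9.38, 9.21 and 9.49 in mutant villi, against 7.79, 8.72 and 8.81 in control villi. It rose by 0.92 ± 0.25 (SE; adjusted p = 0.0395 from limma), without overlap between the groups. Its call was lost without control replicate 2 or any 1 mutant replicate (adjusted p from 0.0517 to 0.106). The paper, however, reports *Mki67* as unchanged in villi of littermates of this age, by qPCR and in its own results from the array profiling. The deposited signals read here come from that profiling. No threshold is named there for *Mki67* on the arrays. The paper's cutoff of a 2-fold change with a false discovery rate of 0.05 was set for its list of affected genes. *Mki67* rose 1.89-fold here. That cutoff does not apply to the qPCR, and the reason for the difference was not tested. *Cdca5*, for sororin, which guards cohesin, had 7.71, 7.51 and 7.46 in mutant villi, against 6.66, 6.87 and 6.96 in control villi, and rose by 0.73 ± 0.11 (adjusted p = 0.00299 from limma). *Cdca2*, which targets a phosphatase to chromatin at mitotic exit, rose by 0.65 ± 0.10 (adjusted p = 0.00362 from limma). Of the 4 condensin subunits, *Ncapd2* (0.61 ± 0.11, adjusted p = 0.00734), *Smc4* (0.58 ± 0.10, adjusted p = 0.00734) and *Ncapg* (0.53 ± 0.14, adjusted p = 0.0348, all from limma) rose and *Smc2* did not pass the test. *Ncapg* was not called without control replicate 2 or any 1 mutant replicate (adjusted p from 0.0598 to 0.0974).

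*Smc2* had 7.93, 7.61 and 7.89 in mutant villi, against 6.84, 7.52 and 7.53 in control villi, a difference of 0.51 ± 0.19 (SE; adjusted p = 0.112 from limma). *Top2a*, topoisomerase II alpha, had 8.59, 8.56 and 8.65 in mutant villi, against 7.31, 8.21 and 8.20 in control villi, a difference of 0.69 ± 0.22 (adjusted p = 0.0732 from limma). Without control replicate 1 the difference of *Top2a* was smaller, 0.40, and passed the test (adjusted p = 0.0175 from limma). The other probe set of *Top2a*, with signals from 3.00 to 3.77, differed by 0.33 (adjusted p = 0.319 from limma). *Espl1*, for separase, was the exception of the group, with 7.31, 7.07 and 7.28 in mutant villi, against 7.67, 7.45 and 7.15 in control villi. Here the groups overlapped and control replicate 1 was the highest array, and the difference was −0.20 with a 95% interval from −0.52 to 0.11 (adjusted p = 0.379 from limma).

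*Foxm1*, the transcription factor that turns on many of these genes in G2, had 6.77, 6.76 and 6.62 in mutant villi, against 6.18, 6.28 and 6.29 in control villi. It rose by 0.47 ± 0.08 (SE; adjusted p = 0.00567 from limma), and the control arrays were within 0.11 of each other. The change of *Foxm1* was below the median of 0.71 of the list.

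**Figure D4:**
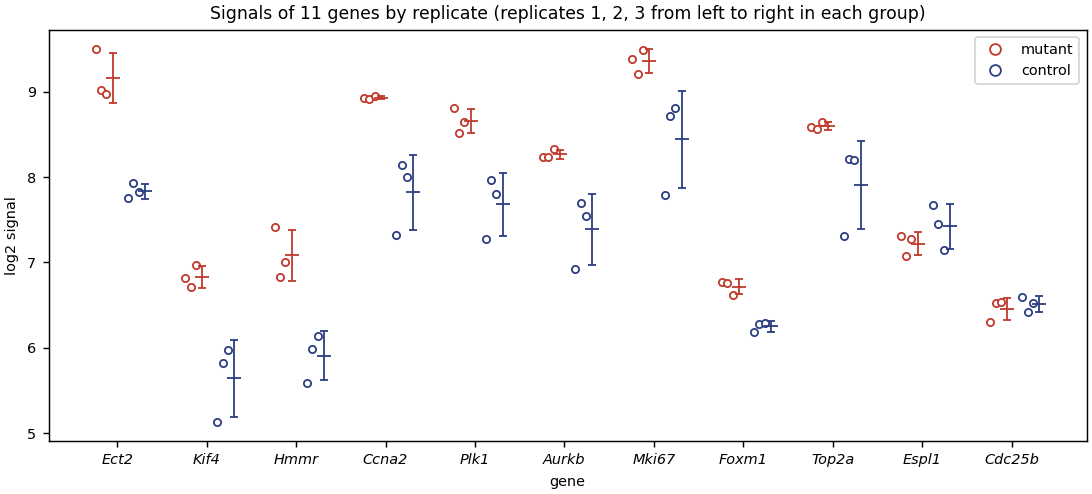
Log2 signal (vertical axis) of 11 genes on each array, with mutant replicates (red) left of control replicates (blue) and the mean ± SD of each group beside the points. Control replicate 1 lies apart in *Kif4*, *Ccna2*, *Plk1*, *Aurkb*, *Mki67* and *Top2a* but not in *Ect2* or *Foxm1*, and the groups overlap in *Espl1* and *Cdc25b*.

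Other genes of the same machinery were read from lists drawn up beside the 52. Of 34 kinetochore proteins outside the list, 14 rose and none fell (none at an unadjusted p of 0.05 or less from limma either), with a median change of 0.35, led by *Zwilch*, a checkpoint protein of kinetochores. *Zwilch* had 7.37, 7.18 and 7.22 in mutant villi, against 6.24, 6.23 and 6.16 in control villi, and rose by 1.05 (adjusted p = 1.73e-04 from limma). Here the control arrays were within 0.08 of each other. Without mutant replicate 2, 7 of the 34 rose. Of 22 further spindle and motor proteins 10 rose and 1 fell (median 0.31). *Spag5*, an adaptor of the spindle, rose by 0.83 (adjusted p = 0.0213 from limma), and *Haus5*, a subunit of augmin, fell by 0.86 (adjusted p = 2.1e-04 from limma). *Haus5* is reported from the brighter of its 2 probe sets only. The call of *Spag5* did not hold when control replicate 3 or mutant replicate 2 or 3 was left out (adjusted p from 0.0524 to 0.0815). Of 9 other cytokinesis proteins 2 rose and none fell, at an unadjusted p from limma either, with *Cep55*, which recruits the abscission machinery, higher by 0.95 (adjusted p = 0.0018 from limma), and 1 of the 9 rose with any 1 array left out except mutant replicate 2. Of 12 genes of centrioles 3 rose and none fell, again at an unadjusted p from limma as well, and *Sass6*, the cartwheel protein, was higher by 0.68 (adjusted p = 0.00184 from limma).

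The anaphase-promoting complex is present through much of the cell cycle, unlike its activator CDC20. Its subunits and regulators had a median change of −0.01, with 1 of 17 genes higher and 4 lower, or 2 lower with any 1 array left out. *Pttg1*, for securin, rose by 0.76 (adjusted p = 0.0353 from limma), a call that did not hold (adjusted p from 0.057 to 0.0962) when control replicate 1 or 3 or mutant replicate 1 or 2 was left out. *Anapc13* fell by 0.68 (adjusted p = 0.00106 from limma) and *Anapc5*, a scaffold subunit, fell by 0.58 (adjusted p = 0.0091 from limma). *Anapc5* is reported from the brightest of its 5 probe sets only. Cohesin and other condensin subunits had a median of 0.01, with 2 of 14 higher and 1 lower. *Ncaph* of condensin I rose by 0.85 (adjusted p = 0.0216 from limma), while *Ncapd3* of condensin II fell by 0.54 (adjusted p = 0.0325 from limma). *Ncaph* was not called without any 1 mutant replicate (adjusted p from 0.0573 to 0.0707), when none of the 14 was higher, nor *Ncapd3* without control replicate 2 or 3 or mutant replicate 1 or 2 (0.0608 to 0.107). *Ncapg2*, the other gene that rose (by 0.45, adjusted p = 0.036 from limma), was not called without control replicate 1 or 3 or any 1 mutant replicate (adjusted p from 0.0623 to 0.1).

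Upstream of mitosis, 12 of 42 genes of DNA replication rose and none fell (none at an unadjusted p of 0.05 or less from limma), with a median of 0.31. *Rrm2*, a subunit of ribonucleotide reductase, had 8.25, 8.05 and 8.10 in mutant villi, against 6.74, 7.01 and 7.02 in control villi, and rose by 1.21 (adjusted p = 2.62e-04 from limma). *Mcm5*, of the replicative helicase, rose by 0.68 (adjusted p = 0.00921 from limma). The count was 7 without mutant replicate 2 and 6 without mutant replicate 3. In the promoters of replication genes, which E2F sites control, the hexamer lay in 9 of 34 genes with a window (26.5%) and CCAAT in 21 of the 34.

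Genes of the G1 phase moved both ways. *Myc*, a transcription factor of growth, had 9.61, 9.50 and 9.36 in mutant villi, against 6.91, 7.70 and 7.62 in control villi, and rose by 2.08 (adjusted p = 4.54e-04 from limma). *Ccnd2*, for cyclin D2, rose by 1.03 (adjusted p = 0.0025 from limma) and its partner kinase *Cdk6* by 0.77 (adjusted p = 0.0185 from limma). By contrast, *Cdk4* had 10.51, 10.36 and 10.54 in mutant villi, against 11.12, 11.08 and 11.10 in control villi, and fell by 0.63 (adjusted p = 0.00139 from limma). *Ccnd3*, for cyclin D3, fell by 0.36 (adjusted p = 0.0198 from limma). The other 5 of the 10 G1 genes did not pass the test. *Cdk6* was not called when mutant replicate 1 or 2 was left out (adjusted p from 0.0582 to 0.063), nor *Ccnd3* without control replicate 1 or 3 or mutant replicate 2 or 3 (0.0521 to 0.0751).

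Of 8 measured inhibitors and inhibitory kinases of CDKs, 3 fell and none rose (none at an unadjusted p of 0.05 or less from limma). *Cdkn1a*, for p21, was also listed but had no probe set of its own and was not measured. *Cdkn1c*, for p57, fell by 0.99 (adjusted p = 0.00623 from limma) and *Cdkn2b*, for p15, fell by 0.81 (adjusted p = 0.00873 from limma). *Wee1*, the kinase that phosphorylates and restrains CDK1, had 7.93, 8.09 and 8.01 in mutant villi, against 8.61, 8.51 and 8.55 in control villi, and fell by 0.55 (adjusted p = 0.0025 from limma). Unlike most of the mitotic genes, *Wee1* was alike on the 3 control arrays.

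Among 17 genes of the DREAM and MuvB complexes and their E2F partners, 3 rose, 1 fell and 13 did not pass the test. *E2f8*, an atypical E2F that represses cell cycle genes, had 7.81, 7.38 and 7.91 in mutant villi, against 9.97, 10.01 and 10.10 in control villi, and fell by 2.33 (adjusted p = 6.2e-05 from limma). *Lin54*, the MuvB subunit that binds the homology region, had 10.08, 9.92 and 9.92 in mutant villi, against 9.32, 9.16 and 9.21 in control villi, and rose by 0.74 (adjusted p = 9.05e-04 from limma). *Mybl2*, for B-MYB, rose by 0.62 (adjusted p = 0.0191 from limma) and *Lin9*, another MuvB subunit, by 0.46 (adjusted p = 0.0347 from limma). The values of *E2f8* and *Lin54* were close together within the control group, where *E2f8* spanned 0.13 and *Lin54* 0.16. The call of *Mybl2* was lost without mutant replicate 1 (adjusted p = 0.0582 from limma), and that of *Lin9* with any 1 array left out except control replicate 3 (0.0621 to 0.114).

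**Figure D5:**
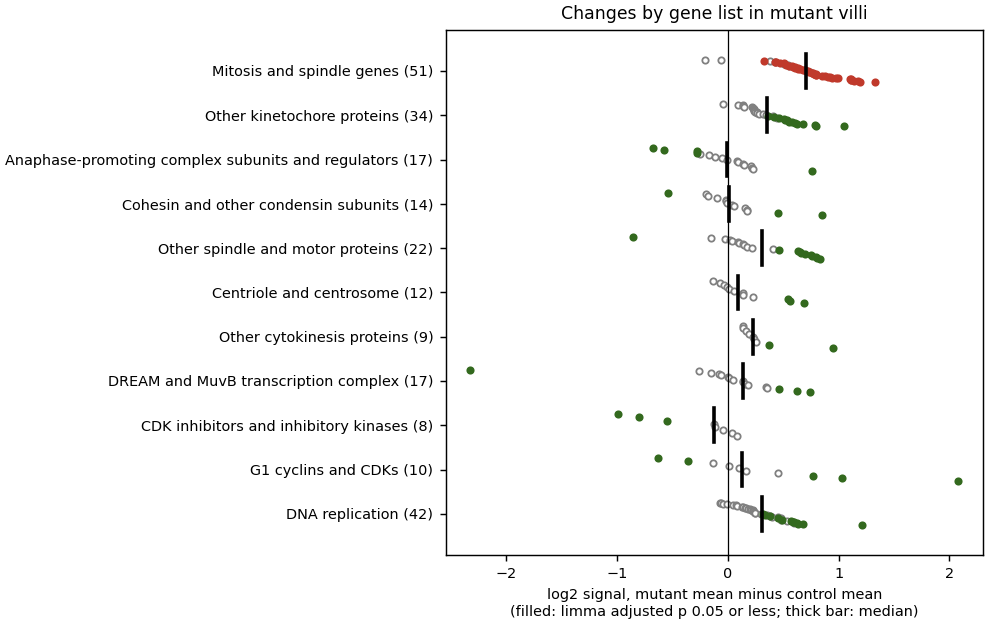
Change of each gene (points; horizontal axis, mutant mean minus control mean of the log2 signal) in the mitosis and spindle genes (red, top) and in 10 other lists of cell cycle genes, with the number of measured genes in brackets. Filled points passed the test and the thick bar is the median of the list, 0.71 in the mitosis and spindle genes and −0.12 to 0.35 in the others.

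Markers of the cell types in the preparation were read from the same arrays. The labelled tissue was checked with 12 enterocyte markers, whose mean signal was 12.40 to 12.49 in mutant and 12.47 to 12.51 in control villi. Of these 12, 2 rose and 4 fell, with *Krt20*, a keratin of the villus, higher by 1.37 (adjusted p = 1.07e-04 from limma), and *Lct*, for lactase, which fell by 0.94 (adjusted p = 0.00361 from limma). With any 1 array left out 1 rose, and the count that fell was 2 without control replicate 2 or 3 or mutant replicate 1. Of 10 markers of crypt base and stem cells 5 rose and none fell (none at an unadjusted p from limma), by a median of 0.56, and their mean signal was 7.94 to 8.13 in mutant and 7.28 to 7.80 in control villi. *Sox9*, a factor of crypt progenitors, rose by 1.41 (adjusted p = 9.42e-04 from limma). *Olfm4*, a stem cell marker, had 8.57, 9.42 and 9.53 in mutant villi, against 9.11, 10.61 and 10.66 in control villi, a difference of −0.95 (adjusted p = 0.184 from limma). Without control replicate 1, *Olfm4* fell by 1.46 (adjusted p = 0.0161 from limma). On control replicate 1, where the mitotic genes were lowest, the crypt markers also had their lowest mean, 7.28, beside 7.80 on both other control arrays. So had 9 mesenchymal markers, 7.75 beside 8.12 and 8.10. Mutant replicate 1 likewise had the lowest crypt mean of its group, 7.94 beside 8.11 and 8.13, and the lowest mesenchymal mean, 8.10 beside 8.45 and 8.39. Its mitotic genes were not low, with a median signal of 7.50, beside 7.41 and 7.46 on mutant replicates 2 and 3. Of the 9 mesenchymal markers, 3 rose and none fell (none at an unadjusted p from limma), or 1 rose without mutant replicate 2. Their mean signal was 8.10 to 8.45 in mutant and 7.75 to 8.12 in control villi. Of 8 neutrophil markers 5 rose, or 3 with any 1 control replicate left out, with mean signals of 6.45 to 7.49 in mutant and 4.97 to 5.07 in control villi. All 5 measured goblet cell markers fell, with mean signals of 9.39 to 9.56 in mutant and 11.86 to 11.97 in control villi. The part of any of these cell types in the change of the mitotic genes was not tested.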

How the data were processed

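Total RNA from villi of 3 mutant and 3 control littermates was labelled with biotin and hybridised to Affymetrix whole-transcript arrays. The authors deposited a log2 signal for each probe set on each array, with 2 decimals. Of the background correction, summarisation and normalization, the details were not given in the sources used here. Array medians lay between 6.24 and 6.30. Groups came from the sample titles, and all 6 arrays were used. Of 30177 probe sets, 21789 had 1 gene symbol in the platform annotation, 1621 had several and 6767 had none or were not listed. Entrez IDs matched 21698 of them to current RefSeq symbols.

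The deposited values of both genotypes were fitted with limma 3.58.1 (lmFit and eBayes, R 4.3.3), and p-values were adjusted by Benjamini-Hochberg over every probe set. Genes at or below an adjusted p of 0.05 are written as risen or fallen. The prior had 3.92 degrees of freedom. The code was tested on simulated data. Precision is limited by the number of arrays. Permuting 3 arrays against 3 in an exact two-sided test gives no p under 0.1.

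The members, the other gene lists and the marker lists were chosen with earlier results of these data known. All members could be named, with values per array for *Mki67*, for the 3 largest changes of each role and for members that did not pass the test. From the other lists, up to 3 called genes with the largest change were taken, and from marker lists up to 2, besides *Trpm7* and any gene of the DREAM, CDK inhibitor and G1 lists. *Xist* and *Eif2s3y* were named outside this rule, after their values were seen. Alternatives were quantile normalization, centring on the median, 32 added on the linear scale, robust estimation with a trend, weights per array, a replicate block, other choices of probe sets, control replicates 2 and 3 averaged, and each replicate left out. Promoter windows came from RefSeq (GRCm38.p6). Python 3.11.15 with pandas 2.3.3 and matplotlib 3.10.9 made tables and plots.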

Additional observations from a re-analysis of the deposited data

How the results depend on the processing

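Among the 51 genes, the count that rose was 41 with all arrays, from 27 to 41 with 1 replicate left out, and from 34 to 43 under 11 other settings, and none fell in any of them by limma. Over all probe sets, the calls went from 1561 to 2037 higher and from 1688 to 2348 lower with 1 replicate left out. The median change of the 51 was 0.53 to 0.80 with 1 replicate left out and 0.55 to 0.78 otherwise. The count of 2-fold rises moved most, as 2 with 32 added on the linear scale, 4 with array weights and 13 with control replicates 2 and 3 averaged, and from 2 to 14 with 1 replicate left out. By construction, adding 32 compresses changes at low signals. Averaging control replicates 2 and 3 gives control replicate 1, the lowest control array in most of these genes, a larger share in the control mean. The array weights give it a smaller share (weight 0.57). Other causes were not tested. Centring each array on its median gave 34 rises among the 51, and over all probe sets 1996 higher and 3456 lower, so that 36.6% of the calls were higher, against 47.7% of 2427 and 2661 calls without centring. *Cdc25b* ranged from −0.107 to 0.0167 with 1 replicate left out, positive without mutant replicate 1, and never passed the test. *Bub1* and *Kif11* were called under 5 of the 11 other settings, with adjusted p values of 0.0325 to 0.0713 for *Bub1* and 0.0337 to 0.0654 for *Kif11* from limma.

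The labels do not say what a replicate number marks, and the arrays were not taken as pairs. The deviations of same-numbered mutant and control arrays correlated at 0.17, 0.04 and 0.12, not all above 0.1. Deviations from a group mean cancel out within the group, which ties these correlations to each other. They therefore cannot decide whether the arrays are paired. Differently numbered arrays correlated at −0.16 to 0.09. Each mutant array correlated best with the control array of its own number, while control replicate 2 correlated best with mutant replicate 3, a hint from the data and not from the design. With the replicate number as a block, 39 of the 51 genes rose, 38 of them shared with the 41, and over all probe sets 2381 were higher and 2576 lower.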

Other observations

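Over all probe sets, the SD of the difference between arrays of the same genotype was 0.24 to 0.28 within the mutant group and 0.18 to 0.25 within the control group, where control replicates 2 and 3 were nearest to each other (0.18). Over the 51 mitosis and spindle genes, the median difference was 0.10 between mutant replicates 1 and 2, −0.12 between mutant replicates 2 and 3, −0.51 between control replicates 1 and 2, and −0.05 between control replicates 2 and 3. The array weights that limma estimated over all probe sets were 0.85 to 1.11 for the mutant arrays, and 0.57, 1.67 and 1.14 for control replicates 1, 2 and 3.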
